A study of Mus musculus with 24 samples.

Results

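Mammary glands of 3 CYP19A1 mice that had carried a letrozole pellet were compared with glands of 3 Esr1 mice that had carried the same pellet. These are 6 of the 24 samples of the series, chosen by their labels and by no measured value. The tested mice were MMTV-rtTA/tet-op-CYP19A1 and the mice they were set against were MMTV-rtTA/tet-op-Esr1. In both lines an rtTA activator under the MMTV promoter, which is active chiefly in mammary epithelium, switches on a tet-operator transgene. All 6 mice were 20 months old, had 8 months of transgene induction, and carried a subcutaneous pellet of 2.5 mg letrozole, released over 60 days, for the last 2 months. The other 18 samples were used for comparison. They were the CYP19A1 and the Esr1 line at 20 months with a 25 mg tamoxifen pellet over 60 days, at 20 months with no drug named, and at 18 months after 6 months of induction, with 3 mice in each group. Every mouse carried a transgene, so a difference between the lines cannot be assigned to either transgene, to letrozole or to the genetic background of the lines. The labels used here do not give litter, strain background or housing.

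CYP19A1 encodes aromatase, the enzyme that turns androgens into oestrogens, and letrozole blocks that enzyme. Esr1 encodes oestrogen receptor alpha, the transcription factor through which oestrogens drive ductal growth and progesterone receptor expression in mammary epithelium. The study asked how tamoxifen and letrozole act on glands with either of these breast cancer risk factors during reproductive senescence. The comparison here is between the lines with the same letrozole pellet in both. How far aromatase was inhibited was not measured in these data.

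Values are TPM, the length-corrected transcript share of a library, from whole gland. Read depth is unknown, and each of the 24 libraries had between 14410 and 17684 genes at 1 TPM or more, the fewest in CYP19A1 letrozole replicate 1. CYP19A1 letrozole replicate 3 stood apart from its group, with correlations of log2(TPM + 1) of 0.944 and 0.954 with the other 2 libraries, which correlated at 0.975 with each other. Its adipocyte hormone Lep was at 7.35 TPM, against 203 and 156 TPM in replicates 1 and 2 and 202, 204 and 277 TPM in Esr1 letrozole glands. The epithelial keratin Krt18 was at 18.3, 56.7 and 90.1 TPM in CYP19A1 letrozole glands and at 46.0, 34.4 and 55.4 TPM in Esr1 letrozole glands, so epithelial RNA was present in each. The muscle creatine kinase Ckm was at 4165, 3924 and 4124 TPM in CYP19A1 letrozole glands, against 4735, 4680 and 4170 TPM in Esr1 letrozole glands, so all 6 samples also held skeletal muscle.

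The labelled transgenes were looked at first. Esr1 was at 14.7, 14.4 and 12.6 TPM in CYP19A1 letrozole glands, against 15.1, 16.8 and 16.1 TPM in Esr1 letrozole glands. The Esr1 letrozole samples were thus higher without overlap, yet only by 0.19 on the log2(TPM + 1) scale (exact two-sided permutation p = 0.1, the smallest that 3 against 3 allows; limma adjusted p = 1). The mouse Cyp19a1 row was at 0.01, 0.12 and 0.01 TPM in CYP19A1 letrozole glands and at 0.11, 0 and 0 TPM in Esr1 letrozole glands. That row was too low to be tested, and the sources used do not say whether transgene reads could reach it. Neither row therefore marks the line that a label names.

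A gene was tested if it reached 1 TPM in 3 or more of the 24 samples, which 19325 did. Of these, 175 genes passed a limma adjusted p of 0.05 between CYP19A1 letrozole and Esr1 letrozole glands, which is 0.906% of the genes tested. Of these, 69 were higher in CYP19A1 letrozole glands (0.357%) and 106 were lower (0.549%). In the same fit the lines differed at 1019 genes (5.27%) at 20 months with no drug, at 195 genes (1.01%) under tamoxifen and at 262 genes (1.36%) at 18 months. The 3 and 3 letrozole samples did not overlap at 17.6% of all genes tested, and at all 175 called genes. Many called rows were not ordinary genes: 59 of the 175 were annotated as pseudogenes and 97 carried predicted, accession-like or antibody segment names. The called share was 4.02% among the 1467 pseudogenes tested and 0.593% among the 13838 protein-coding genes tested. Of the 82 protein-coding genes called, 23 were higher and 59 were lower in CYP19A1 letrozole glands. The count was 102 to 132 when any 1 of the 6 libraries was left out, 322 under median-ratio scaling and 283 without Esr1 untreated replicate 2.

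**Figure D1:**
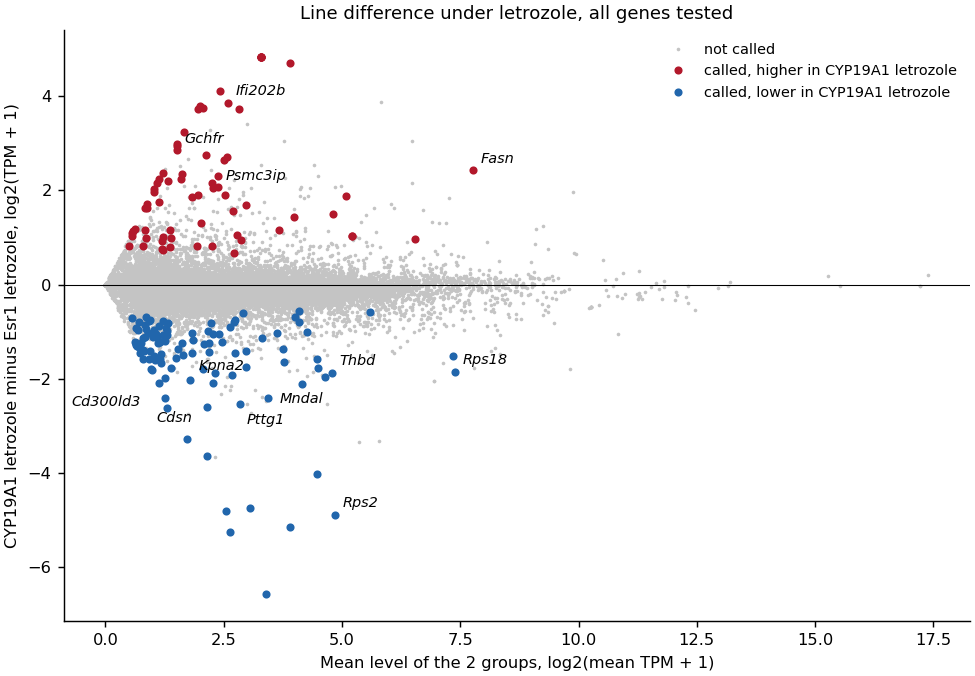
Difference between the lines under letrozole (CYP19A1 minus Esr1, log2(TPM + 1), y axis) against the mean level of the 2 groups (log2 of mean TPM + 1, x axis) for the 19325 genes tested, with genes past an adjusted p of 0.05 in colour. The 69 higher and 106 lower genes lie mostly at low levels, with Fasn and Rps18 among the few at high levels.

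Many differences between the lines under letrozole were at genes that were also called between the lines without it. Ifi202b, an interferon-inducible DNA-binding protein of the Ifi200 family, was at 21.7, 20.7 and 23.7 TPM in CYP19A1 letrozole glands, against 0.72, 0.57 and 0.47 TPM in Esr1 letrozole glands. The means were 22.1 ± 1.52 and 0.587 ± 0.126 TPM (SD, n = 3 each), a difference of 3.86 ± 0.20 (SE) on the log2(TPM + 1) scale (limma adjusted p = 3.25e-11). The same difference was 4.30 under tamoxifen, 4.37 with no drug and 3.87 at 18 months. All 12 CYP19A1 libraries stood above all 12 Esr1 libraries: the lowest CYP19A1 value was 17.2 TPM and the highest Esr1 value was 0.97 TPM.

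Gchfr, the protein that couples GTP cyclohydrolase to its feedback inhibition, was at 6.61, 7.16 and 6.12 TPM in CYP19A1 letrozole glands and at 0, 0.17 and 0 TPM in Esr1 letrozole glands (difference 2.85 ± 0.20, adjusted p = 5.6e-09). Psmc3ip, a recombination cofactor, was at 10.6, 11.1 and 7.44 TPM against 1.87, 1.40 and 1.33 TPM in Esr1 letrozole glands (difference 2.07 ± 0.17, adjusted p = 8.54e-08). Abhd1, an alpha/beta hydrolase family member, and Dynlt1b, a dynein light chain, were also higher in CYP19A1 letrozole glands, by 1.85 ± 0.18 and 1.49 ± 0.29. The Dynlt1b call was lost without Esr1 letrozole replicate 1, CYP19A1 letrozole replicate 1 or CYP19A1 letrozole replicate 2. In the other direction, Kpna2, an importin that carries proteins into the nucleus, was at 1.08, 1.59 and 1.41 TPM in CYP19A1 letrozole glands against 8.49, 8.71 and 9.62 TPM in Esr1 letrozole glands (difference -2.08 ± 0.21, adjusted p = 2.22e-06). Rps18, a ribosomal protein, was at 68.8, 76.9 and 115 TPM against 444, 245 and 266 TPM in Esr1 letrozole glands (difference -1.84 ± 0.24, adjusted p = 0.000119). Cdsn, the corneodesmosin of cornified epithelium, was at 1.68, 0.62 and 0.21 TPM against 13.1, 7.89 and 8.40 TPM in Esr1 letrozole glands (difference -2.60 ± 0.37, adjusted p = 0.000265). None of these groups overlapped, and each of these genes was called in the same direction in all 4 conditions.

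Of the 175 genes called under letrozole, 100 were called in the same direction with no drug (57.1% of the letrozole list and 9.81% of the 1019), 93 under tamoxifen (53.1% of the letrozole list and 47.7% of the 195) and 94 at 18 months (53.7% of the letrozole list and 35.9% of the 262). None was called in the opposite direction. These comparisons use different mice. In all, 79 genes were called with the same sign in all 4 conditions, 49 higher and 30 lower in the CYP19A1 line, and 42 of the 79 were annotated as pseudogenes. The sign of the difference was the same in all 4 conditions at 142 of the 175 genes (81.1%), against 21.3% of all genes tested.

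**Figure D2:**
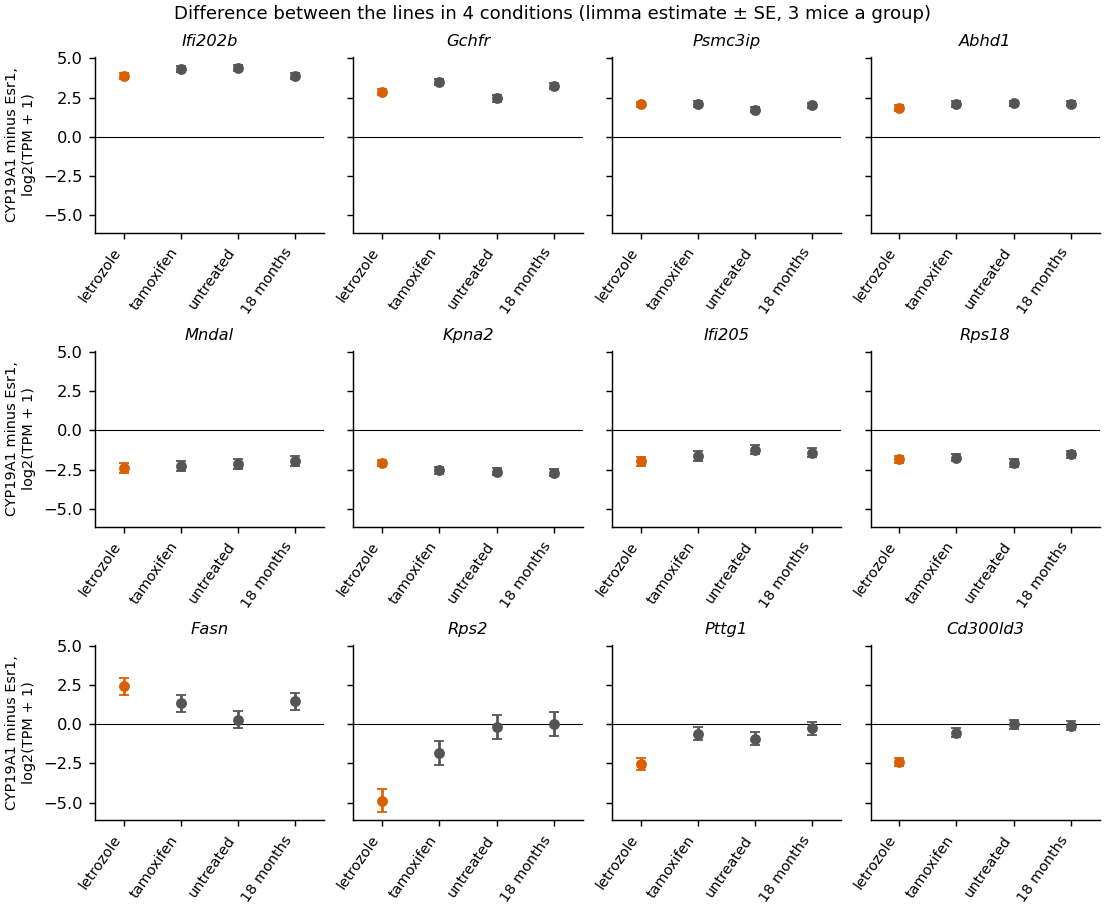
Difference between the lines (CYP19A1 minus Esr1, log2(TPM + 1), limma estimate with its SE as bar, 3 mice a group) under letrozole, under tamoxifen, with no drug at 20 months and at 18 months, for 12 genes. The first 8 genes keep their sign in all 4 conditions, whereas Fasn, Rps2, Pttg1 and Cd300ld3 lie farther from 0 under letrozole than in the other 3.

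The Ifi200 cluster gave the clearest group of related genes. Its proteins bind DNA or sense it in the cytosol, and interferons induce many of them. Of 11 members tested, 1 was called higher (Ifi202b) and 3 were called lower in CYP19A1 letrozole glands, against 0.357% and 0.549% of all genes. The list had 3 calls under tamoxifen, 4 with no drug and 5 at 18 months. Mndal was at 2.60, 3.59 and 5.16 TPM in CYP19A1 letrozole glands and at 24.2, 25.0 and 22.1 TPM in Esr1 letrozole glands (difference -2.40 ± 0.33, adjusted p = 0.000226). Ifi205 was at 11.8, 11.0 and 11.7 TPM against 50.5, 53.6 and 40.6 TPM in Esr1 letrozole glands (difference -1.97 ± 0.29, adjusted p = 0.000469). Ifi213 was at 0.04, 0.13 and 0.08 TPM against 2.14, 1.53 and 1.08 TPM in Esr1 letrozole glands (difference -1.23 ± 0.24, adjusted p = 0.0113), a call lost without replicate 1 of either line. The groups of all 3 were apart. Ifi204, Ifi203, Ifi207 and Ifi209 also did not overlap between the lines, with differences of -0.54, -0.38, -0.46 and -0.82, but did not pass. In all, 7 of the 11 were lower without overlap, against 13.6% of all genes. Aim2, the inflammasome DNA sensor, was at 2.65, 3.12 and 4.28 TPM in CYP19A1 letrozole glands against 3.43, 3.86 and 2.33 TPM in Esr1 letrozole glands, and overlapped. The members therefore did not move together: Ifi202b went against Mndal, Ifi205 and Ifi213. The cluster's genes are relatives, and how reads were shared among their rows was not tested.

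Of the 16 interferon-stimulated genes tested, Ifit3 was called, lower, against 0.549% of all genes called lower. Ifit3, an interferon-induced antiviral protein, was at 3.62, 4.74 and 1.67 TPM in CYP19A1 letrozole glands and at 16.6, 10.7 and 12.1 TPM in Esr1 letrozole glands (difference -1.75 ± 0.35, adjusted p = 0.0118). The call was lost without Esr1 letrozole replicate 1 (also without CYP19A1 letrozole replicate 3, at adjusted p = 0.0850) and in a fit of the letrozole samples alone. Its neighbour Ifit3b was at 1.37, 3.20 and 0.86 TPM against 6.18, 4.82 and 5.09 TPM in Esr1 letrozole glands (difference -1.26 ± 0.29, adjusted p = 0.0416). The 2 genes are near-identical copies, so reads may have been split between them, though both were lower. Apobec3, a cytidine deaminase that restricts retroviruses, was at 3.55, 7.14 and 10.3 TPM against 20.7, 20.0 and 26.4 TPM in Esr1 letrozole glands (difference -1.63 ± 0.33, adjusted p = 0.0128). Ifit3b and Apobec3 were singled out after their values were seen. Over the 16 listed genes 15 differences were below 0 and 8 genes did not overlap, all lower, and the median difference was -0.50, against -0.07 over all genes tested, where 13.6% did not overlap and were lower. Without CYP19A1 letrozole replicate 3 the list's median was -0.51.

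The upstream sequences of these genes are shown because they carry the core of the interferon-stimulated response element, the site bound by interferon regulatory factors. The letters GAAANNGAAA were searched on both strands in the 250 bases before 1 annotated start per gene. RefSeq sequences of GRCm38.p6 matched 74 of the 175 called genes. The letters were in 7 of 59 promoters of genes lower in CYP19A1 letrozole glands (11.9%), in 0 of 15 promoters of higher genes and in 821 of all 27025 promoters (3.04%). The 7 genes were Apobec3, Ifi205, Ifi213, Ifit3, Ifit3b, Mndal and Zfp982. They are not independent: Ifi205, Ifi213 and Mndal are relatives in the Ifi200 cluster, and Mndal and Ifi213 have the same matched letters, GAAATCGAAA. The 27025 promoters were not limited to genes tested here, and the shares were not compared by a test. Ifit3 and Ifit3b each hold 2 matches, read as TTTCACTTTC and TTTCAGTTTC on the printed strand, and their upstream sequences were identical at 188 of 218 aligned bases (86.2%). Ifi202b, the cluster member that was higher, has 0 matches in its window. The palindromic oestrogen response element GGTCANNNTGACC was in 0 of the 74 promoters and in 17 of 27025 (0.0629%). A match describes the letters and shows no binding. The runs below are 5′ to 3′ on the gene's strand and end at the base before the start of the first transcript in the RefSeq promoter table, with the matched letters in capitals. For Ifit3 and Mndal that start lies inside the gene's outer bounds.
Ifit3, chr19:34583279-34583528, plus strand: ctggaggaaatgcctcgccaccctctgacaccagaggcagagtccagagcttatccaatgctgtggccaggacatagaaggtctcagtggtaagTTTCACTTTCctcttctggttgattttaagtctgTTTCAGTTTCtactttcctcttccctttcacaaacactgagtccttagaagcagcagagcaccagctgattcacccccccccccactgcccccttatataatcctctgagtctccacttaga
Ifit3b, chr19:34607707-34607956, plus strand: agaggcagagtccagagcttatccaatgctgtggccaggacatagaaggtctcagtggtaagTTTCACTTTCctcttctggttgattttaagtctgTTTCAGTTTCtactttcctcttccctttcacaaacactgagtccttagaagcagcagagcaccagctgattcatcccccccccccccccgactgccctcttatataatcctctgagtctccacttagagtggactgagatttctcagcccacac
Ifi205, chr1:174031756-174032005, minus strand: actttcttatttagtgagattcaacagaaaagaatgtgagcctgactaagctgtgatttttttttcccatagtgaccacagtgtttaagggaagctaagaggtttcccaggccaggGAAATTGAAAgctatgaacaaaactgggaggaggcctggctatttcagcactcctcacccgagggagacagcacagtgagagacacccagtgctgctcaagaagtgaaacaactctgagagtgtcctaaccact
Mndal, chr1:173880188-173880437, minus strand: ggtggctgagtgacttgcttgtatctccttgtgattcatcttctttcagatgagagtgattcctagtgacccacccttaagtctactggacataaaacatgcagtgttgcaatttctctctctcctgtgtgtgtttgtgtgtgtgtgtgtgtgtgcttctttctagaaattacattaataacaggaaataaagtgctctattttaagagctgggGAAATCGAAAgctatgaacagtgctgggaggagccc

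Of 16 fatty acid synthesis genes tested, Fasn alone passed, higher in CYP19A1 letrozole glands, against 0.357% of all genes. Fasn, fatty acid synthase, was at 683, 650 and 254 TPM in CYP19A1 letrozole glands, against 85.0, 102 and 82.4 TPM in Esr1 letrozole glands. The means were 529 ± 239 and 89.7 ± 10.5 TPM (SD, n = 3 each), a difference of 2.42 ± 0.55 (limma adjusted p = 0.0366). The groups did not overlap, and replicate 3 of the CYP19A1 line lay between the Esr1 samples and its own group. The call was lost when any of the 6 letrozole libraries but CYP19A1 replicate 3 was left out, and with no filter on low values (adjusted p up to 0.203). Without that replicate the difference was 2.89 (adjusted p = 0.0211). Fasn averaged 484 TPM in CYP19A1 tamoxifen glands and 242 TPM in Esr1 tamoxifen glands, 476 TPM in CYP19A1 untreated and 384 TPM in Esr1 untreated glands, and 929 TPM in CYP19A1 and 358 TPM in Esr1 glands at 18 months. The lowest group of the 8 was thus Esr1 letrozole, although Esr1 tamoxifen replicates 2 and 3, at 114 and 89.0 TPM, were nearly as low. The difference from the other conditions did not pass (letrozole minus the mean of the other 3, 1.40, adjusted p = 0.726).

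Acaca, the acetyl-CoA carboxylase that makes malonyl-CoA, was at 152, 152 and 60.6 TPM in CYP19A1 letrozole glands, against 34.6, 36.6 and 30.1 TPM in Esr1 letrozole glands (difference 1.71, adjusted p = 0.118). Slc25a1, the mitochondrial citrate carrier, was at 79.4, 84.7 and 39.0 TPM against 22.9, 27.0 and 24.8 TPM in Esr1 letrozole glands (difference 1.33, adjusted p = 0.0683). Neither overlapped between the lines, and without CYP19A1 letrozole replicate 3 both passed (adjusted p = 0.0432 for Acaca and 0.0152 for Slc25a1). Acly, which splits citrate to acetyl-CoA, was at 184, 198 and 30.4 TPM against 35.8, 32.6 and 30.8 TPM in Esr1 letrozole glands, and replicate 3 was below every Esr1 sample. Srebf1, which encodes the transcription factor that drives these genes, was at 66.7, 88.5 and 64.4 TPM against 40.2, 40.0 and 44.5 TPM in Esr1 letrozole glands (difference 0.79, adjusted p = 0.303). Scd1, the stearoyl-CoA desaturase, did not separate the lines, at 3810, 3076 and 706 TPM in CYP19A1 letrozole glands and 2265, 2284 and 2396 TPM in Esr1 letrozole glands. Of the 16 genes tested 1 was called higher and 14 differences were above 0. The median difference was 0.79, against -0.07 over all genes tested, and 1.02 without CYP19A1 letrozole replicate 3. The groups did not overlap, with the CYP19A1 line higher, at 7 of the 16, against 3.95% of all genes tested. Without that replicate 3 members were called and 15 of the 16 did not overlap, against 8.67% of all genes. Without CYP19A1 letrozole replicate 1 no member was called, and the median was 0.76. The list's median was 0.21 with no drug, 0.48 under tamoxifen and 1.21 at 18 months, so it was larger at 18 months than under letrozole. The list had 2 calls with no drug and 0 under tamoxifen and at 18 months, against 5.27%, 1.01% and 1.36% of all genes.

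**Figure D3:**
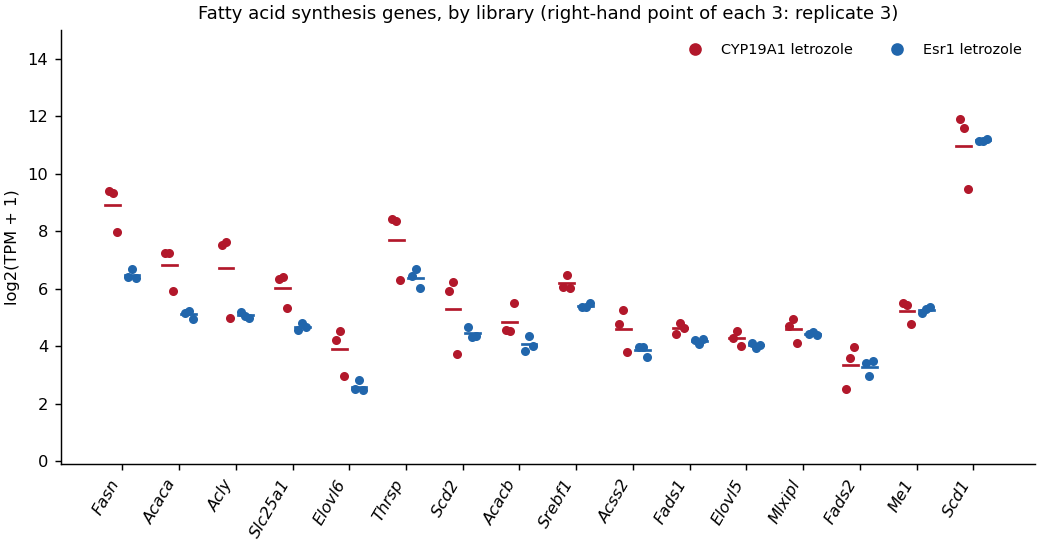
Level (log2(TPM + 1), y axis) of the 16 fatty acid synthesis genes in each of the 3 CYP19A1 letrozole and 3 Esr1 letrozole libraries, replicates 1 to 3 from left to right, with bars at group means, ordered by the difference between the lines. CYP19A1 replicates 1 and 2 lie above the Esr1 libraries for most genes and replicate 3 lies close to them for several, among them Acly at 30.4 TPM.

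Aacs, which turns the ketone body acetoacetate into acetyl-CoA for lipid synthesis, was at 26.0, 33.6 and 17.5 TPM in CYP19A1 letrozole glands and at 9.06, 8.17 and 8.29 TPM in Esr1 letrozole glands (difference 1.44 ± 0.32, adjusted p = 0.0284). Sh2b2, an adaptor of insulin signalling, was at 9.42, 9.44 and 8.45 TPM against 3.68, 4.71 and 4.31 TPM in Esr1 letrozole glands (difference 0.95 ± 0.21, adjusted p = 0.0286). Neither overlapped between the lines. The Aacs call was lost without any of the 6 letrozole libraries but CYP19A1 replicate 3, with no filter and with a replicate block, and the Sh2b2 call without any of the 6. Aacs was also called higher at 18 months, by 1.45 (limma adjusted p = 0.0206). None of 13 white adipocyte markers was called, against 0.906% of all genes. Their median difference was -0.38, and 0.05 without CYP19A1 letrozole replicate 3. Their mean log2(TPM + 1) was 8.87, 8.65 and 7.34 in CYP19A1 letrozole libraries and 8.53, 8.60 and 8.67 in Esr1 letrozole libraries. The mean of the fatty acid synthesis list was 6.12, 6.31 and 5.22 in CYP19A1 letrozole libraries and 5.04, 5.08 and 4.99 in Esr1 letrozole libraries. Both means were thus lowest in replicate 3 among the CYP19A1 libraries, and the part of adipocyte content in the fatty acid synthesis values was not tested. Of 14 cholesterol synthesis genes none was called, against 0.906% of all genes. Their median was 0.02, and none was without overlap, against 17.6% of all genes.

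Among genes of oestrogen synthesis and inactivation, Hsd17b7 was lower in CYP19A1 letrozole glands. Its enzyme reduces oestrone to oestradiol and also serves cholesterol synthesis. It was at 2.21, 4.33 and 1.5 TPM in CYP19A1 letrozole glands, against 8.19, 6.52 and 6.76 TPM in Esr1 letrozole glands, and the groups did not overlap. The means were 2.68 ± 1.47 and 7.16 ± 0.903 TPM (SD, n = 3 each) and the difference was -1.22 ± 0.22 (limma adjusted p = 0.00431). It was 0.134 in a fit of the letrozole samples alone. The CYP19A1 mean was also below the Esr1 mean with no drug (difference -0.84, adjusted p = 0.029), under tamoxifen (-0.61, not called) and at 18 months (-0.44, not called). The other 9 genes tested of that list were not called, against 0.906% of all genes called. Hsd17b12 was at 30.7, 26.6 and 18.1 TPM in CYP19A1 letrozole glands and at 17.02, 19.4 and 21.9 TPM in Esr1 letrozole glands, and overlapped.

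No oestrogen target was called under letrozole, of 17 tested, against 0.906% of all genes. The progesterone receptor gene Pgr was at 0.70, 2.84 and 3.82 TPM in CYP19A1 letrozole glands and at 2.52, 1.90 and 2.52 TPM in Esr1 letrozole glands. Areg, the epidermal growth factor ligand of ductal growth, was at 0.45, 1.42 and 1.70 TPM against 3.79, 1.32 and 4.63 TPM in Esr1 letrozole glands. Greb1 was at 0.25, 0.83 and 0.83 TPM against 1.66, 1.3 and 0.66 TPM in Esr1 letrozole glands. All 3 overlapped between the lines. Of the 17 differences 15 were below 0 and the median was -0.25, against -0.07 over all genes tested; it was -0.14 under median-ratio scaling. With no drug, 7 of the 17 were called between the lines, with a median of 0.33, against 5.27% of all genes. Esr1 untreated replicate 2 had 17.4% of its TPM in ribosomal RNA models, against 2.02% or less in the other 23 libraries. Without it 2 of the 17 were called with no drug, with a median of -0.10, against 3.12% of all genes. The tamoxifen and 18-month comparisons called none, against 1.01% and 1.36% of all genes. No gene of the proliferation list was called under letrozole, of 20 tested, against 0.906% of all genes. With no drug 10 were called, and 2 without Esr1 untreated replicate 2, against 5.27% and 3.12% of all genes. The change between conditions in these lists was tested only gene by gene, and no member passed.

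Another set of genes was called between the lines under letrozole and in none of the other 3 conditions. Rps2, a protein of the small ribosomal subunit, was at 3.59, 4.40 and 5.08 TPM in CYP19A1 letrozole glands, against 172, 144 and 152 TPM in Esr1 letrozole glands (difference -4.88 ± 0.75, limma adjusted p = 0.00115). Outside those 3 mice Rps2 was between 3.59 and 11.7 TPM in 20 libraries and at 164 TPM in Esr1 tamoxifen replicate 3. Pttg1, the securin that holds back the separation of sister chromatids, was at 1.88, 1.77 and 2.27 TPM against 17.6, 16.4 and 14.8 TPM in Esr1 letrozole glands (difference -2.54 ± 0.41, adjusted p = 0.00166), and at 15.3 TPM in Esr1 tamoxifen replicate 3. Cd300ld3, of a family of leukocyte surface receptors, was at 0, 0.05 and 0.05 TPM against 5.47, 4.47 and 3.73 TPM in Esr1 letrozole glands (difference -2.42 ± 0.28, adjusted p = 2.02e-05), and at 2.32 TPM in Esr1 tamoxifen replicate 3, while the other 20 libraries stayed at or under 0.2 TPM. Plac9b was at 14.0, 13.6 and 6.63 TPM against 46.1, 36.9 and 35.9 TPM in Esr1 letrozole glands (difference -1.77 ± 0.40, adjusted p = 0.038), and at 29.0 TPM in Esr1 tamoxifen replicate 3. The Plac9b call was lost without any 1 of the 6 letrozole libraries. The high values of these 4 genes thus belonged to 4 mice, 1 of which had carried tamoxifen and not letrozole. The difference under letrozole minus the mean of the other 3 conditions did not pass for Rps2 (adjusted p = 0.192), Pttg1 (0.348) or Plac9b (0.348), and passed for Cd300ld3.

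Part of the list showed this pattern. Of the 175 genes, 61 were called under letrozole and in none of the other 3 conditions, 10 higher and 51 lower in CYP19A1 letrozole glands, and 2 of the 61 passed the test against the other conditions. In 25 of the 51 (49.0%), the 3 Esr1 letrozole libraries and Esr1 tamoxifen replicate 3 all stood above the other 20 libraries. With any other library in place of that replicate, at most 3 genes showed this. Esr1 tamoxifen replicate 3 was nearer to the Esr1 letrozole mean than to the CYP19A1 letrozole mean at 54 of the 61 genes (88.5%), the other Esr1 libraries without letrozole at 12 to 27, and the CYP19A1 libraries without letrozole at 4 to 13. The nucleotidase gene Entpd4, named after its values were seen, was at 27.4, 25.8 and 24.9 TPM in Esr1 letrozole glands, at 27.9 TPM in Esr1 tamoxifen replicate 3 and at 21.1 TPM or less in the other 20. In 4 further genes, Gm9780, Gm30794, Gm21769 and Gm13156, the 3 Esr1 letrozole libraries alone stood above the other 21. Gm21769, a processed pseudogene, was at 1.18, 1.19 and 2.10 TPM in Esr1 letrozole glands and listed at 0 in all other 21 libraries. Gm21769 and Gm13156 met the filter of 1 TPM only through the 3 Esr1 letrozole libraries. Among the 25, Cd300ld4 did so too. Others of the 25, such as Gm12070, AL824709.1 and Gm32687, met it only through these and Esr1 tamoxifen replicate 3. Such genes were tested because of the libraries where they were high, so the count of 25 is no independent support. The other 22 of the 51 showed neither pattern. What the 4 mice share is not given by the labels, and the part of letrozole in the 25 genes cannot be told apart from the part of the individual mice.

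**Figure D4:**
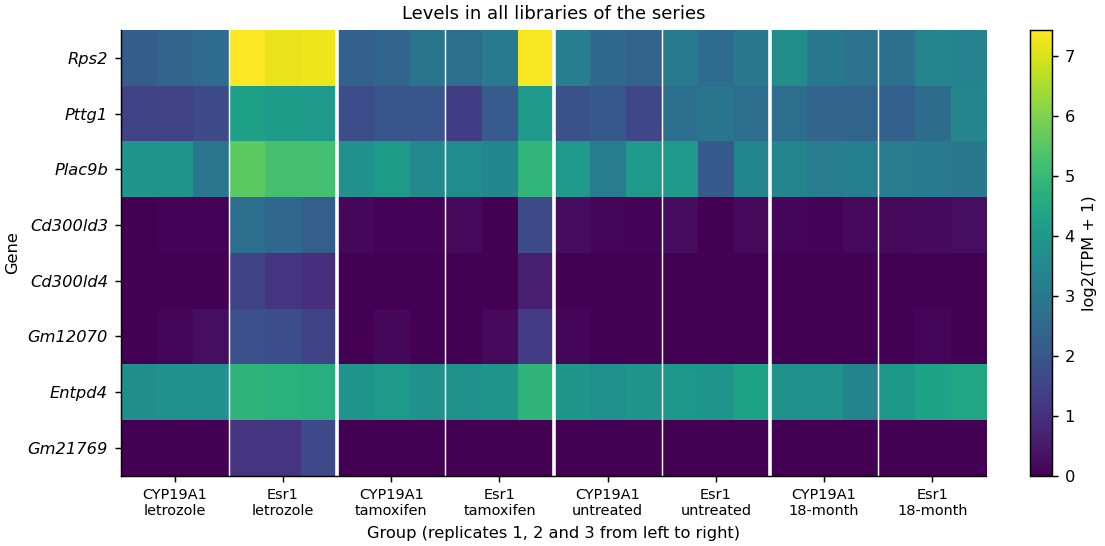
Level (log2(TPM + 1), colour) of 8 genes called between the lines under letrozole and in none of the other conditions, in all 24 libraries, with the CYP19A1 group left of the Esr1 group in each condition. In every row but Gm21769 the 3 Esr1 letrozole libraries and Esr1 tamoxifen replicate 3 are the highest; Rps2 is at 164 TPM in that replicate.

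The direct tests of the difference between conditions were nearly empty. No gene passed for the line difference under letrozole minus that with no drug (0%; 2277 genes at an unadjusted p under 0.05, smallest adjusted p 0.0836) or minus that under tamoxifen (0%; 853 genes, smallest adjusted p 0.167). Against the mean of the other 3 conditions 2 genes passed (0.0103%; 1294 genes at an unadjusted p under 0.05). They were Cd300ld3 (-2.21, adjusted p = 0.0126) and Gm21769 (-1.30, adjusted p = 0.00991). Both reached the 1 TPM of the filter only in Esr1 libraries where they were high, so their small p is no independent support. Next by p were Cd300ld4 (-1.16), Gm12070 (-1.42) and Gm454 (-1.28), with adjusted p of 0.101, 0.141 and 0.141. Cd300ld4 and Gm12070 also reached 1 TPM only in Esr1 libraries where they were high, so the same limit holds for them. Without Esr1 tamoxifen replicate 3, a library left out because of its values, the 3 tests called 42, 28 and 46 genes, and 16 of the 46 were among the 25 above. Other genes had the smallest p in the tests against no drug and against tamoxifen, with none past the threshold. Gm48866 and 1810043G02Rik differed by 0.06 and 0.05 under letrozole and by -1.46 and -1.36 with no drug. Gm30794 (-1.20 under letrozole) was called under letrozole, while Nmu (0.37), Prtn3 (-1.28) and Gm26147 (0.58) were not.

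**Figure D5:**
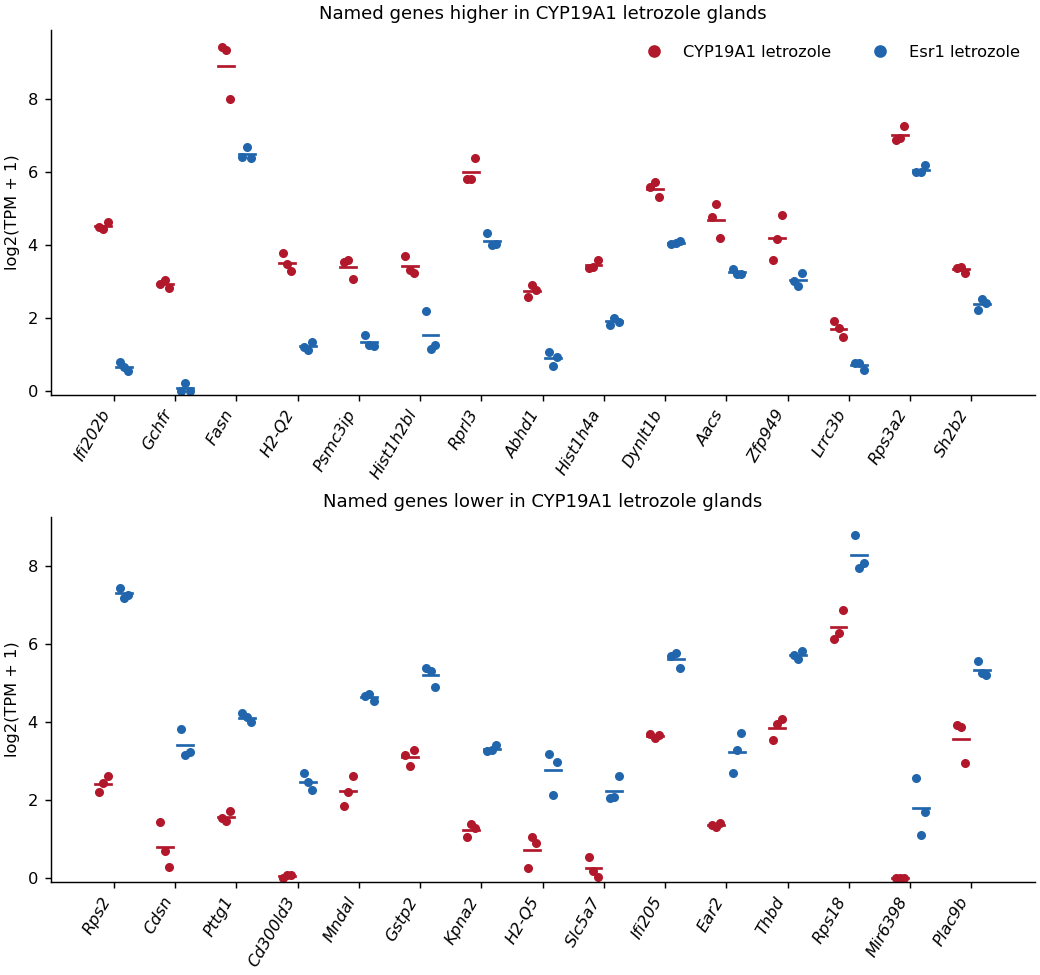
Level (log2(TPM + 1), y axis) of the 15 named genes higher (upper panel) and the 15 lower (lower panel) in CYP19A1 letrozole glands, one point per mouse, 3 a group, with bars at group means. The groups do not overlap for any of the 30 genes, and Fasn, with 683, 650 and 254 TPM in CYP19A1 letrozole glands, has the widest spread in TPM among the higher ones.

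The listed markers of macrophages, antigen presentation and connective tissue were mostly lower in CYP19A1 letrozole glands by value. None of those listed was called, against 0.906% of all genes. In whole glands, fewer cells of a type and less RNA per cell cannot be told apart. Adgre1, the macrophage surface receptor F4/80, was at 5.46, 7.82 and 4.42 TPM in CYP19A1 letrozole glands, against 27.0, 9.55 and 11.3 TPM in Esr1 letrozole glands (difference -1.18, adjusted p = 0.159). Csf1r, the receptor macrophages need to survive, was at 20.6, 23.3 and 16.2 TPM against 48.0, 32.1 and 28.9 TPM in Esr1 letrozole glands (-0.81, adjusted p = 0.372). Neither overlapped, and Esr1 letrozole replicate 1 was the highest of the 6 for both. Of 14 macrophage markers 11 did not overlap and were lower, against 13.6% of all genes, with a median of -0.83, and -0.59 without CYP19A1 letrozole replicate 3. The summed TPM of that list was 300, 379 and 199 in CYP19A1 letrozole libraries and 728, 439 and 437 in Esr1 letrozole libraries.

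The class II antigen-presenting gene H2-Ab1 was at 28.3, 40.2 and 18.8 TPM in CYP19A1 letrozole glands, against 94.1, 74.0 and 73.1 TPM in Esr1 letrozole glands (difference -1.49, adjusted p = 0.118). Of 10 listed class II genes 8 did not overlap and were lower, against 13.6% of all genes, with a median of -0.79. Without CYP19A1 letrozole replicate 3 the median was -0.53 and 8 did not overlap, against 20.7% of all genes. The class II row H2-Ea-ps was not in that list and was called higher, as given below. The collagen gene Col3a1 was at 279, 321 and 48.5 TPM against 345, 467 and 444 TPM in Esr1 letrozole glands (difference -1.34, adjusted p = 0.396). Without CYP19A1 letrozole replicate 3 it was -0.47. For the 16 fibroblast and collagen genes the median was -0.74, and -0.30 without that replicate, so much of this difference lay in that library. The basal keratin Krt5 was at 2.53, 7.35 and 9.12 TPM in CYP19A1 letrozole glands and at 12.99, 9.05 and 14.7 TPM in Esr1 letrozole glands, and the 12 basal markers had a median of -0.71, and -0.37 without CYP19A1 letrozole replicate 1. Milk protein genes varied widely within each line: Csn1s1, a casein, was at 96.0, 227 and 158 TPM in CYP19A1 letrozole glands and at 67.0, 15 and 120 TPM in Esr1 letrozole glands, and none of 15 was called, against 0.906% of all genes. Of the 15 differences 13 were above 0, with a median of 0.42, against -0.07 over all genes tested. The groups did not overlap, with the CYP19A1 line higher, at 4 of the 15, against 3.95% of all genes. The list's median was -2.49 with no drug, -1.11 under tamoxifen and -0.86 at 18 months.

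Thbd, the thrombomodulin of the vessel wall, was at 10.6, 14.3 and 15.7 TPM in CYP19A1 letrozole glands, against 51.1, 48.2 and 55.3 TPM in Esr1 letrozole glands (difference -1.87 ± 0.39, limma adjusted p = 0.0181). The groups were far apart. Of 12 endothelial markers it was called alone, against 0.549% of all genes called lower. Pecam1 was at 31.2, 50.7 and 56.7 TPM in CYP19A1 letrozole glands and at 43.1, 44.2 and 52.1 TPM in Esr1 letrozole glands, and Cdh5 at 20.5, 31.9 and 27.5 TPM against 23.7, 26.5 and 33.1 TPM in Esr1 letrozole glands. The list's median was 0.04. The Thbd call was lost without any of the 6 letrozole libraries but CYP19A1 replicate 3. Thbd also differed at 18 months (-1.93, adjusted p = 0.0105), and its CYP19A1 groups averaged 12.0 to 15.6 TPM over the 4 conditions against 30.7 to 51.5 TPM in the Esr1 groups. Thbs1, a secreted matrix protein named after its values were seen, was at 10.7, 12.5 and 11.5 TPM in CYP19A1 letrozole glands, against 39.6, 25.5 and 48.1 TPM in Esr1 letrozole glands (difference -1.58 ± 0.34, adjusted p = 0.0203).

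Several other genes were lower in CYP19A1 letrozole glands without overlap, but lost their call when a letrozole library was left out. Slc5a7 and Gstp2 were also called lower in the CYP19A1 line under tamoxifen (limma adjusted p = 0.0113 and 0.000722). At 18 months Slc5a7, Gstp2 and Ear2 were called lower (limma adjusted p = 0.0498, 0.0302 and 0.0482). Ear2, an eosinophil-associated ribonuclease, was at 1.58, 1.46 and 1.65 TPM against 5.48, 8.75 and 12.2 TPM in Esr1 letrozole glands (difference -1.88 ± 0.44, adjusted p = 0.0461), a call lost without any 1 of the 6. Slc5a7, the choline transporter, was at 0.45, 0.14 and 0.02 TPM against 3.12, 3.19 and 5.08 TPM in Esr1 letrozole glands (difference -1.99 ± 0.37, adjusted p = 0.00632), and lost its call without Esr1 letrozole replicate 3. Gstp2, a glutathione transferase, was at 7.93, 6.26 and 8.62 TPM against 41.0, 38.7 and 28.9 TPM in Esr1 letrozole glands (difference -2.11 ± 0.39, adjusted p = 0.00763), and lost its call without Esr1 letrozole replicate 1. Its pseudogene Gstp-ps, singled out after its values were seen, went the other way, at 9.74, 9.52 and 7.86 TPM against 1.11, 1.11 and 1.58 TPM in Esr1 letrozole glands.

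The microRNA row Mir6398 was listed at 0 in all 3 CYP19A1 letrozole glands and was at 4.87, 1.14 and 2.25 TPM in Esr1 letrozole glands (adjusted p = 0.0178). Its mature form is shown with the seed, bases 2 to 8, in capitals, from RefSeq on GRCm38.p6 at chr4:123616493-123616513, plus strand.
mmu-miR-6398: gUCAAUGAaccucagguaagg
Libraries of total RNA do not isolate mature microRNAs, and the call was lost with a pseudocount of 0.1, in a fit of the letrozole samples alone and without any of the 6 letrozole libraries but Esr1 replicate 2.

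Among further genes that were higher in CYP19A1 letrozole glands, Lrrc3b kept its call under every alternative. It was at 2.75, 2.33 and 1.80 TPM against 0.69, 0.70 and 0.50 TPM in Esr1 letrozole glands (difference 1.01 ± 0.18, adjusted p = 0.0035). Lrrc3b was also called higher with no drug (limma adjusted p = 0.000148) and under tamoxifen (0.00728). The zinc finger gene Zfp949 was at 11.1, 17.1 and 27.1 TPM against 7.07, 6.39 and 8.44 TPM in Esr1 letrozole glands (difference 1.15 ± 0.24, adjusted p = 0.0162). Its call was lost without Esr1 letrozole replicate 1 or 2, or CYP19A1 letrozole replicate 2 or 3. Zfp949 was also called higher with no drug (limma adjusted p = 0.0110), under tamoxifen (0.000886) and at 18 months (0.0024). Of 61 histone genes tested 3 were called, all higher, against 0.357% of all genes, while 40 of the 61 differences were below 0. Hist1h4a was at 9.41, 9.57 and 11.1 TPM against 2.53, 3.01 and 2.73 TPM in Esr1 letrozole glands, and Hist1h2bl at 12.0, 9.04 and 8.47 TPM against 3.54, 1.22 and 1.40 TPM in Esr1 letrozole glands. Histone genes are near-identical copies, so these rows are uncertain. The Hist1h4a call was lost without any of the 6 letrozole libraries but Esr1 replicate 2, and the Hist1h2bl call without any of the 6 but replicate 1 of the Esr1 line or replicate 3 of the CYP19A1 line. Hist1h2bl was also called higher under tamoxifen and at 18 months, and Hist1h4a under tamoxifen. Rprl3, an RNase P RNA-like gene, differed by 1.89 ± 0.40 and the ribosomal protein copy Rps3a2 by 0.96 ± 0.23, and both calls were lost without any 1 of the 6. Rprl3 was also called higher at 18 months, by 2.27 (limma adjusted p = 0.00312).

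The class I major histocompatibility genes H2-Q2 and H2-Q5 went opposite ways. H2-Q2 was at 12.7, 10.2 and 8.72 TPM in CYP19A1 letrozole glands and at 1.31, 1.19 and 1.51 TPM in Esr1 letrozole glands (difference 2.29 ± 0.51, adjusted p = 0.0338). H2-Q5 was at 0.19, 1.05 and 0.85 TPM against 8.10, 3.34 and 6.81 TPM in Esr1 letrozole glands (difference -2.03 ± 0.45, adjusted p = 0.029). The H2-Q2 call was lost without any 1 of the 6 libraries and the H2-Q5 call without any but Esr1 letrozole replicate 2. H2-Q2 was also called higher under tamoxifen, and H2-Q5 lower with no drug and under tamoxifen. These genes are close paralogs and their estimates can share reads. H2-Ea-ps, annotated as a polymorphic pseudogene and named after its values were seen, was at 40.5, 24.5 and 11.1 TPM in CYP19A1 letrozole glands and at 0, 1.09 and 1.65 TPM in Esr1 letrozole glands. The difference was 3.73 ± 0.72 (limma adjusted p = 0.0113). It is a class II gene outside the class II list above, and it went against that list. It was also called higher with no drug and under tamoxifen.

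Some large differences lay between a gene and its processed copies. Rps2 and its 11 pseudogene rows summed to 378 ± 63.9 TPM in CYP19A1 letrozole glands and to 354 ± 28.1 TPM in Esr1 letrozole glands (SD, n = 3 each), a ratio of 1.07, although the Rps2 row alone had a ratio of 0.0279. Rps2-ps10 was at 308, 368 and 432 TPM in CYP19A1 letrozole glands and at 208, 181 and 193 TPM in Esr1 letrozole glands. It was at 200 TPM in Esr1 tamoxifen replicate 3, so its low values were in the same 4 mice in which Rps2 was high. Rpl35a was at 75.9, 94.6 and 116 TPM against 288, 253 and 270 TPM in Esr1 letrozole glands (difference -1.51 ± 0.19), while its 6 pseudogene rows summed to 180, 220 and 215 TPM against 3.03, 3.68 and 4.12 TPM in Esr1 letrozole glands. The gene and these 6 rows together had a ratio of 1.10. With Gm10243, a pseudogene row with the same values as 4 of the 6 and added after its values were seen, the sum was 301, 369 and 385 TPM in CYP19A1 letrozole glands and 291, 257 and 275 TPM in Esr1 letrozole glands, a ratio of 1.28 without overlap. Other copies not named for their gene were not summed, and how reads were shared among copies was not tested. For Rps18 the sum over gene and copies was 87.8 ± 24.7 TPM in CYP19A1 letrozole glands and 323 ± 106 TPM in Esr1 letrozole glands, and for Kpna2 it was 1.89 ± 0.373 and 9.10 ± 0.459 TPM, so those sums also differed.

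Positions of the called genes were looked at next. RefSeq positions on GRCm38.p6 were matched for 149 of the 175. In windows of 5 Mb, 13 windows held at least 3 called genes each. They held 45 of the 149 (30.2%) and 880 of the 16458 tested genes with a position (5.35%). These windows were picked by their calls, so the shares are a description and no test. The share of tested genes called was highest on chromosome 17, with 21 of 811 (2.59%), then on chromosome 14 (2.23%), chromosome 19 (1.99%) and chromosome 1 (1.47%). Over all genes tested it was 0.906%. On chromosome 1, the window from 170000001 to 175000000 held Copa, Ifi213, Mndal, Ifi202b and Ifi205, of 80 genes tested. On chromosome 17, the window from 5000001 to 10000000 held Dynlt1a, Dynlt1b, Tmem181b-ps, Tagap1 and Rsph3a, of 34 tested, and all 5 were called in every condition. On chromosome 19, Lipo3 and Lipo2 lay in the window of Ifit3 and Ifit3b. Lipo3 was at 0.69, 1.12 and 0.77 TPM in CYP19A1 letrozole glands and at 4.59, 4.06 and 3.98 TPM in Esr1 letrozole glands, while Lipo2 was at 1.14, 1.38 and 0.83 TPM against 0.02, 0.02 and 0.04 TPM in Esr1 letrozole glands. On chromosome 14, Entpd4, Gm16867, Gm21451 and Gm27177 shared a window in which no gene was called in all 4 conditions. The number of windows was 4 to 7 when 1 of the 6 libraries was left out, and 27 under median-ratio scaling.

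Most lists showed nothing past the test. Of 35 lists, with 430 distinct genes tested, 6 held a called gene and 29 held none. The 9 distinct genes called, against 0.906% of all genes, were 2 higher (Ifi202b and Fasn) and 7 lower (Hsd17b7, Cdsn, Ifit3, Mndal, Ifi205, Ifi213 and Thbd). Without Esr1 letrozole replicate 1 there were 5. No member was called of the hormone-sensing luminal (12 tested), luminal progenitor (15), fatty acid oxidation (14), oxidative phosphorylation (18), mitochondrially encoded (13), brown adipocyte (10), skeletal muscle (13), T and NK cell (15) or B and plasma cell (13) lists. All 18 oxidative phosphorylation differences were above 0, with a median of 0.11, and 14 of 18 were without CYP19A1 letrozole replicate 1. Over all 19325 genes tested 6678 differences were above 0. The oxidative phosphorylation median was larger in the other conditions, at 0.60 with no drug, 0.32 under tamoxifen and 0.15 at 18 months. With no drug 4 of the 18 were called, against 5.27% of all genes. The erythroid genes moved with CYP19A1 letrozole replicate 3: Hba-a1 was at 534, 637 and 1433 TPM in CYP19A1 letrozole glands and at 351, 334 and 352 TPM in Esr1 letrozole glands, and the part of blood in any result was not tested. Of 14 circadian clock genes none was called, with 6 differences above 0 and 8 below. Without overlap were 2 higher and 5 lower, against 3.95% and 13.6% of all genes. The lowest difference was that of the repressor Nr1d1, at 21.2, 26.6 and 22.6 TPM in CYP19A1 letrozole glands against 43.7, 41.6 and 46.3 TPM in Esr1 letrozole glands (difference -0.88, adjusted p = 0.197). The labels do not state the hour of dissection.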

How the data were processed

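RNA-seq of whole mammary gland from 24 mice was used as a table of TPM values to 2 decimals, deposited by the authors. Per the labels' protocols, libraries were stranded, made from total RNA after rRNA removal, with random primers. RSEM 1.3.1, STAR 2.7.9a and mm10 are listed, with no role, per the submitters' processing notes. TPM keep no depth, so no counting interval was given. Genes that reached 1 TPM in 3 or more samples were tested as log2(TPM + 1) in a limma 3.58.1 fit in R 4.3.3 (trend and robust eBayes) over 8 groups of 3, with Benjamini-Hochberg adjustment over all genes tested. Differences on this scale understate the change of low genes. The groups came from the labels, which call the mice of a group biological replicates. The script was tested on simulated data. Named genes were Esr1, Cyp19a1, up to 15 called genes in each direction with the largest change, without overlap and with a mean of at least 2 TPM in the higher group, leaving out predicted symbols, pseudogenes and receptor segments, up to 4 called members of each list, up to 6 genes in each direction in each test between conditions (or the 5 with the smallest p where fewer passed), and up to 10 genes called in all 4 conditions. The members and lists were chosen with earlier results of these data known. Positions, promoters and the microRNA are from RefSeq on GRCm38.p6, matched by symbol. Alternatives changed the pseudocount, filter, scaling, samples, eBayes settings, a replicate block or a muscle covariate, or left out libraries.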

Additional observations from a re-analysis of the deposited data

Results flagged for a closer look

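The difference between the lines under letrozole differed from the mean of the other 3 conditions, by the interaction contrast of the limma fit, at 2 genes.

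Cd300ld3 had a contrast of -2.21 (adjusted p = 0.0126). It was lower in 3 of 3 CYP19A1 letrozole mice, at 0, 0.05 and 0.05 TPM, than in the 3 Esr1 letrozole mice, at 5.47, 4.47 and 3.73 TPM, and it was at 2.32 TPM in Esr1 tamoxifen replicate 3. The other 20 libraries were at 0.2 TPM or less, so it met the filter only through the libraries where it was high. The adjusted p was between 0.0415 and 0.129 when 1 letrozole library was left out, above 0.05 in 5 of the 6 cases, and 6.28e-08 without Esr1 tamoxifen replicate 3.

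Gm21769 had a contrast of -1.30 (adjusted p = 0.00991). It was listed at 0 in every library but the 3 Esr1 letrozole ones. It met the filter of 1 TPM in 3 samples only through those 3, so its adjusted p follows in part from how it was selected. The adjusted p was between 0.0234 and 0.0729 when 1 letrozole library was left out, and 0.499 with a pseudocount of 0.1.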

How the results depend on the processing

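Of 38 named called genes, 17 kept their call under all 18 alternatives, 21 lost it under at least 1, and 0 changed direction. Nmu, which was not called, was at -0.000847 without CYP19A1 letrozole replicate 3, and between that and 0.59 over the 6 libraries left out in turn. The 175 calls (69 higher, 106 lower) were 322 (153 and 169) under median-ratio scaling, 267 (116 higher) when rescaled without abundant genes, and 283 (196 lower) without Esr1 untreated replicate 2; the cause was not tested. Leaving out 1 letrozole library gave 102 to 132 calls, 46 to 61 higher and 55 to 77 lower, 23 to 36 genes called in no other condition, 4 to 7 windows with 3 or more called genes and 5 to 11 list members against 9, with 1 sample fewer in an arm. The 61 genes called in no other condition were 111 with no filter, 113 under median-ratio scaling and 115 without Esr1 untreated replicate 2, which called 12 list members. The 13 windows were 27 under median-ratio scaling, 20 when rescaled without abundant genes and 20 without Esr1 untreated replicate 2. For letrozole minus no drug, the 0 calls were 9 with no filter, 3 with the filter on the 6 letrozole samples, 1 under median-ratio scaling, 4 without trend or robust eBayes, 38 with the muscle covariate and 42 without Esr1 tamoxifen replicate 3. For letrozole minus tamoxifen, the 0 calls were 3, 1, 1, 1 and 28 under the same settings in that order, the muscle covariate left out. For letrozole minus the other 3, the 2 calls were 0 with a pseudocount of 0.1, 13 with no filter, 4 with the filter on the letrozole samples, 1 when rescaled without abundant genes, 46 without Esr1 tamoxifen replicate 3, and 0 to 2 when 1 letrozole library was left out. The setting without Esr1 tamoxifen replicate 3 was chosen after seeing the data. The Esr1 difference of -0.19 was -0.23 to -0.13 with 1 library left out. The replicate numbers do not pair the mice: deviations of same-numbered samples correlated at 0.039, -0.070 and 0.035, and the fit with a replicate block called 165 genes, of which 160 were among the 175. Precision is limited by 3 mice a group and an unknown depth.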
